A study of Sus scrofa with 6 samples.

Results

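The miR-181 family was followed in small RNA libraries from 3 milk exosome samples and 3 milk samples of Rongchang pigs. Exosomes are small membrane vesicles released by cells, and the title of the series sets the miRNAs they carry against those of milk. All 6 samples are of 1 breed and were stored frozen, no treatment is named for them, and neither the age of the animals nor whether an exosome and a milk sample of the same number share an animal is given in the sources used here. The p-values over all miRNAs therefore measure only the spread between these samples, which may be technical. Members were entries of the labelled sheet whose mature name starts with miR-181 and a letter from a to d. This gave 4 of the 245 entries, namely miR-181a, miR-181b, miR-181c and miR-181d. The family was selected on the deposited values of miR-181a, which in exosomes all lay above those in milk. Its values in milk exosome against milk are therefore given as a description, with no test.

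miRNAs are short RNAs that guide silencing proteins to messenger RNAs, mainly by pairing of the seed, bases 2 to 8 of the mature strand. In mice, miR-181a sets how strongly developing T cells respond to their antigen receptor and favours the B cell lineage when overexpressed in blood progenitors. Members of the family have been listed among the immune-related miRNAs of mammalian milk.

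The listed sequences are shown because they carry the relation between the members. They are written 5′ to 3′ as the deposited sheet gives them, with T for U, and the capitals mark the seed.
miR-181a: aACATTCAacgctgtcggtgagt
miR-181b: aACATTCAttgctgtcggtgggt
miR-181c: aACATTCAacctgtcggtgagtt
miR-181d: aACATTCAttgttgtcggtgggtt
All 4 shared the seed ACATTCA, and no other of the 245 labelled entries carried it at bases 2 to 8. Outside the seed the family fell into 2 pairs. miR-181b differed from miR-181a by A9T, C10T and A21G, where positions count from 1 at the 5′ end of miR-181a and its base comes first. miR-181c matched miR-181a in 22 bases, lacked its base at position 11 and had 1 further base at the 3′ end. miR-181d matched miR-181b in 22 bases and differed from it by C12T, counted on miR-181b, and by 1 further base at the 3′ end. The closest members are thus a with c and b with d. Each of these sequences stood under 1 name.

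The listed forms of miR-181a and miR-181b carried a suffix for 1 base fewer at the 3′ end than the reference and that of miR-181c a suffix for 1 base more. The labelled sheet held 2 identical lines each for miR-181a and miR-181b and 1 line each for miR-181c and miR-181d. In the RefSeq annotation of the Sscrofa11.1 assembly, miR-181a and miR-181b have 2 genes each, in 2 pairs of neighbours (MIR181A-1 with MIR181B-1 and MIR181A-2 with MIR181B-2). There MIR181D and MIR181C are neighbours as well, and they are followed in order by MIR23A, MIR27A and MIR24-1. A second sheet, whose value columns match no sample label and were not used, named 12 more miR-181 entries. Of these, 7 did not contain the seed letters, and 6 of the 7 are named for the 3p arm of the hairpin.

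Libraries of the same group differed widely in depth. The value that occurred most often above 0 was taken as that of 1 read. The listed miRNAs then held 8020867 read equivalents in milk exosome 3 and 9124580 in milk 1, called deep here, and 1901 to 9313 in the other 4, called shallow. One read stood for 0.0937 in milk exosome 3 and 0.0759 in milk 1, and for 9.01 to 19.7 in the shallow libraries. The libraries most like each other bore different group labels. Across 141 entries, which are not independent, the log2 values of milk exosome 3 and milk 1 had a Pearson correlation of 0.993 and those of milk exosome 1 and milk 2 one of 0.761, against at most 0.582 within a group. Milk exosome 3 and milk 1 were also the only deep libraries, and every within-group pair held at least 1 shallow library. For this pair, depth and label thus cannot be told apart in these correlations. Among the shallow libraries, milk exosome 1 and milk 2 stood at 0.761. The within-group values there were 0.582 for milk 2 and milk 3 and 0.333 for milk exosomes 1 and 2. The other shallow pairs across groups lay at 0.424 to 0.468. The labels of milk exosome 3 and milk 1 carry a doubt. The fold changes and alike profiles below are therefore also given for the shallow libraries alone. Those are not free of the doubt, since the pair most alike among them also bore different group labels.

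miR-181a was the main member in each library. On the deposited scale it stood at 293, 275 and 291 in milk exosomes 1, 2 and 3, against 271, 194 and 89.9 in milk 1, 2 and 3. All exosome values lay above all milk values, and milk 3 was the lowest of the 6. The means were 286 ± 9.74 in exosomes and 185 ± 90.7 in milk (SD, n = 3 each), a log2 fold change of 0.77 (SE 1.08, limma on log2(value + 1)). The fold change is smaller than this SE, which limma moderates by the spread of the other entries. The residual SD of miR-181a alone was 0.57 on the log2 scale. Of 141 tested entries, 1 was higher in every exosome library than in every milk library (0.709%), and this was miR-181a itself. Nothing is read from this share, since it is what chose the family.

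Few reads lay behind the miR-181a values of the shallow libraries. They were 32.5 read equivalents in milk exosome 1, 14 in milk exosome 2, 13.5 in milk 2 and 6.5 in milk 3, against 3110 in milk exosome 3 and 3566 in milk 1. Fractions of a read occur throughout the deposited values. The 95% Poisson intervals of the abundance were 150 to 462 in milk exosome 2, against 104 to 328 in milk 2 and 34.6 to 190 in milk 3. These intervals, like all others here, cover at most counting error and not the spread between samples. No molecular identifiers are named for the reads, which need not be independent molecules, so the intervals may be too narrow even for that. The groups were separated by the gap between milk exosome 2 and milk 1, which was 4.46. In milk exosome 2 this is 0.227 of a read, and with 1 read fewer its value would have been 256, below milk 1.

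**Figure D1:**
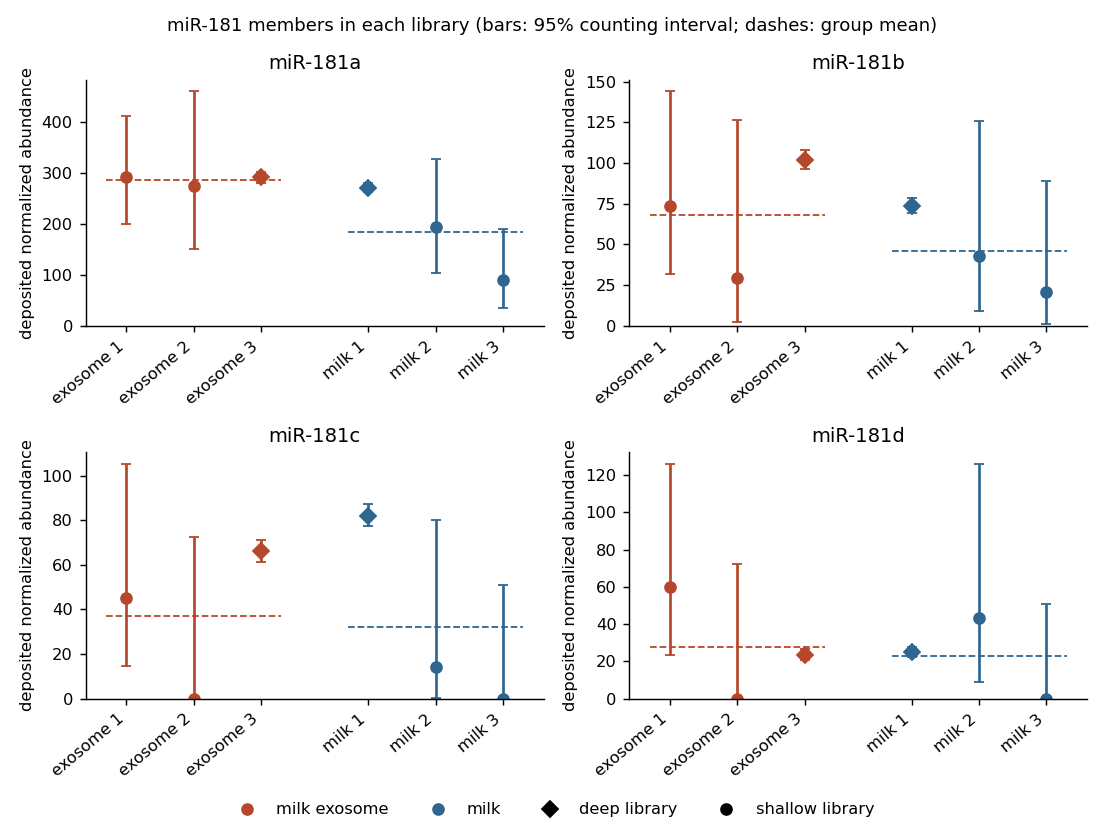
Deposited normalized abundance of each miR-181 member in the 3 exosome and 3 milk libraries, with 95% counting intervals as bars and group means as dashed lines. The 3 exosome values of miR-181a sit at 275 to 293, above the milk values of 89.9 to 271. The intervals of milk exosome 2 (150 to 462) and milk 2 (104 to 328), both shallow, span most of the range from 89.9 to 293.

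The order of the libraries depended on the denominator. As a share of the listed signal of its library, miR-181a held 0.349%, 0.358% and 0.0388% of milk exosomes 1, 2 and 3, against 0.0391%, 0.310% and 0.342% of milk 1, 2 and 3. The low shares belonged to the 2 deep libraries, 1 in each group, and the groups overlapped. The deep libraries differed from the others in the summed share of red blood cell miRNAs. The 5 erythrocyte miRNAs (miR-451, miR-144, miR-486, miR-16 and miR-92a) held 90.6% of milk exosome 3 and 91.5% of milk 1, against 3.16% to 15.0% of the shallow libraries. Most of that sum was miR-451, at 612167 in milk exosome 3 and 574940 in milk 1, out of 751401 and 692860 listed. There miR-92a stood at 5265 and 7231 and miR-486 at 3325 and 2896, so the sum does not speak for each of the 5.

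With these 5 left out of the total, a denominator chosen after the values were seen, miR-181a held nearly the same share of every library. It was 0.375%, 0.370% and 0.414% in milk exosomes 1, 2 and 3, against 0.459%, 0.365% and 0.397% in milk 1, 2 and 3. The highest share was 1.26 times the lowest. The muscle miRNAs stayed in this total, although in milk exosome 2 they held 55.1% of the listed signal, against at most 10.5% in the others. Shares with the muscle miRNAs also left out were not computed, so the near equality holds for this denominator alone. The 95% Clopper-Pearson interval of milk exosome 3 ran from 0.399% to 0.428%, against 0.444% to 0.474% for milk 1. The intervals of these deep libraries thus did not overlap, although they treat read equivalents as independent draws. The shallow intervals, such as 0.202% to 0.620% for milk exosome 2 and 0.153% to 0.837% for milk 3, held the shares of all 6 libraries. Among the 81 tested entries outside the erythrocyte list that were above 0 in each library, none had a smaller ratio of highest to lowest share. The next was miR-29a at 2.002, miR-181b stood in place 7 at 3.66, and the median was 16.8. This rank does not mark miR-181a as the most constant miRNA. It uses the values that chose the family, and the counting intervals of the shallow libraries are wider than a ratio of 1.26. On the deposited scale miR-181a was not first. By the SD of log2(value + 1) over the 6 libraries it was number 6 of 141 at 0.66, after miR-27b-3p at 0.30, miR-29b at 0.47 and 3 others, against a median of 2.34. Ordered by value within each library, miR-181a stood at places 45, 33 and 44 in milk exosomes 1, 2 and 3, against places 45, 53 and 44 in milk 1, 2 and 3, where 125 to 230 entries were above 0.

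**Figure D2:**
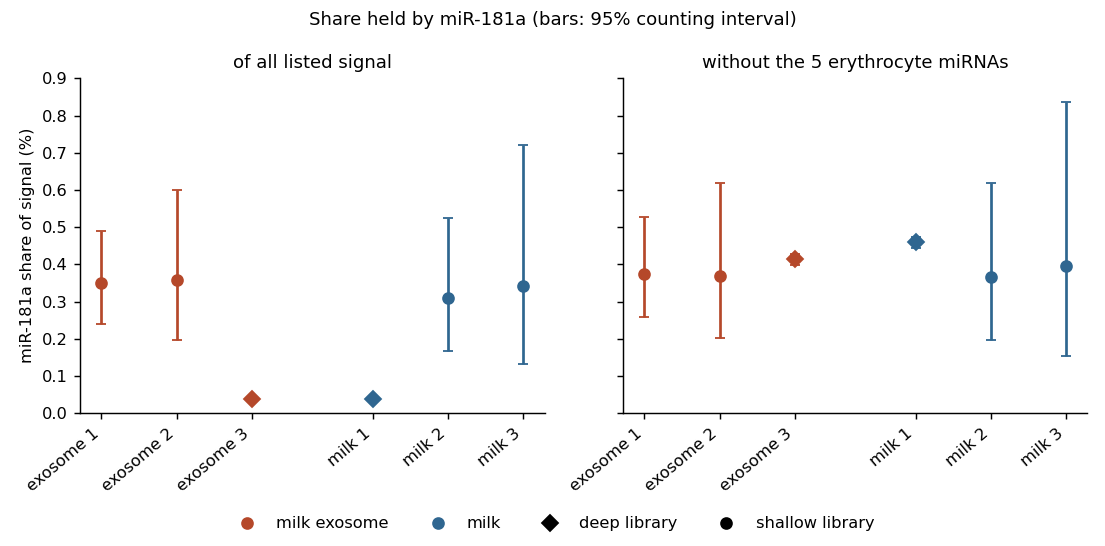
Share of signal held by miR-181a in percent for each library, of all listed signal on the left and without the 5 erythrocyte miRNAs on the right, with 95% counting intervals. The deep libraries (diamonds) lie near 0.039% on the left and at 0.414% and 0.459% on the right, where all 6 points fall between 0.365% and 0.459%.

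miR-181b, which in mice limits inflammatory signalling in the vessel lining through importin α3, was the next most abundant member in 4 of the 6 libraries. It stood at 73.6, 29.5 and 101.99 in milk exosomes 1, 2 and 3, against 73.7, 43.0 and 20.8 in milk 1, 2 and 3. The groups overlapped, with milk exosome 2 below milk 1 and milk 2. The means were 68.3 ± 36.5 in exosomes and 45.8 ± 26.6 in milk (SD, n = 3 each), with a log2 fold change of 0.57 (SE 1.42). In milk exosome 2 and milk 3 the value rests on 1.5 read equivalents each, and in milk 2 on 3.

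miR-181c, known in rat heart for acting on a mitochondrial messenger RNA, stood at 45.0, 0 and 66.2 in milk exosomes 1, 2 and 3, against 82.1, 14.3 and 0 in milk 1, 2 and 3. It was highest in the 2 deep libraries, and each group held 1 library listed at 0. Its value in milk 2 was 1 read. In milk exosome 2 and milk 3 a count of 0 allows up to 3 reads, worth 59.0 and 41.5, so the 0 of milk exosome 2 does not exclude the levels of milk exosome 1 or milk 2. The log2 fold change was 0.43 (SE 2.42), and without milk 3 it was -1.29.

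miR-181d, known in human glioma for repressing the DNA repair gene MGMT, stood at 60.0, 0 and 23.5 in milk exosomes 1, 2 and 3, against 24.9, 43.0 and 0 in milk 1, 2 and 3. Here the highest values were those of shallow libraries, at 6.67 read equivalents in milk exosome 1 and 3 in milk 2. The 95% intervals of milk exosome 1 (23.5 to 126) and milk 2 (8.87 to 126) reached down to about the levels of the deep libraries. The log2 fold change was 0.13 (SE 2.30), and without milk 3 it was -1.56.

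In order of level, miR-181a stood above the other members in every library. Below it, miR-181b, miR-181c and miR-181d did not keep 1 order. miR-181b was above miR-181c in milk exosome 3 and below it in milk 1, and miR-181d equalled miR-181b in milk 2.

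The makeup of the family signal does not depend on how libraries were scaled. miR-181a made up 62.1%, 90.3% and 60.3% of it in milk exosomes 1, 2 and 3, against 60.0%, 65.9% and 81.3% in milk 1, 2 and 3. The 2 highest shares belonged to the libraries with the fewest family reads, 15.5 read equivalents in milk exosome 2 and 8 in milk 3, where miR-181c and miR-181d were listed at 0. Their 95% intervals were 64.6% to 99.3% for milk exosome 2, which lay above the shares of both deep libraries, and 40.8% to 98.6% for milk 3, which held them. In milk 2 the interval was 41.9% to 85.0% and in milk exosome 1 it was 47.6% to 75.1%, and both held the shares of the deep libraries.

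In the deep libraries the makeup could be read finely. In milk exosome 3 miR-181a held 60.3% of the family signal (95% interval 59.0% to 61.7%), against 60.0% (58.7% to 61.2%) in milk 1. The share of miR-181b was 21.1% (20.01% to 22.3%) in milk exosome 3, against 16.3% (15.4% to 17.3%) in milk 1. That of miR-181c was 13.7% (12.8% to 14.7%) in milk exosome 3, against 18.2% (17.2% to 19.2%) in milk 1. miR-181d held 4.86% (4.29% to 5.48%) of milk exosome 3's family signal, against 5.52% (4.95% to 6.13%) of that in milk 1. The intervals of miR-181b and of miR-181c were apart, in opposite directions, and those of miR-181a and miR-181d overlapped. On the deposited scale miR-181b in milk exosome 3 was 1.38 times its value in milk 1 (95% interval 1.27 to 1.51) and miR-181c 0.807 times (0.733 to 0.888). The ratio was 1.08 (1.03 to 1.13) for miR-181a and 0.942 (0.796 to 1.11) for miR-181d. These intervals compare 2 libraries, not milk exosome with milk.

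**Figure D3:**
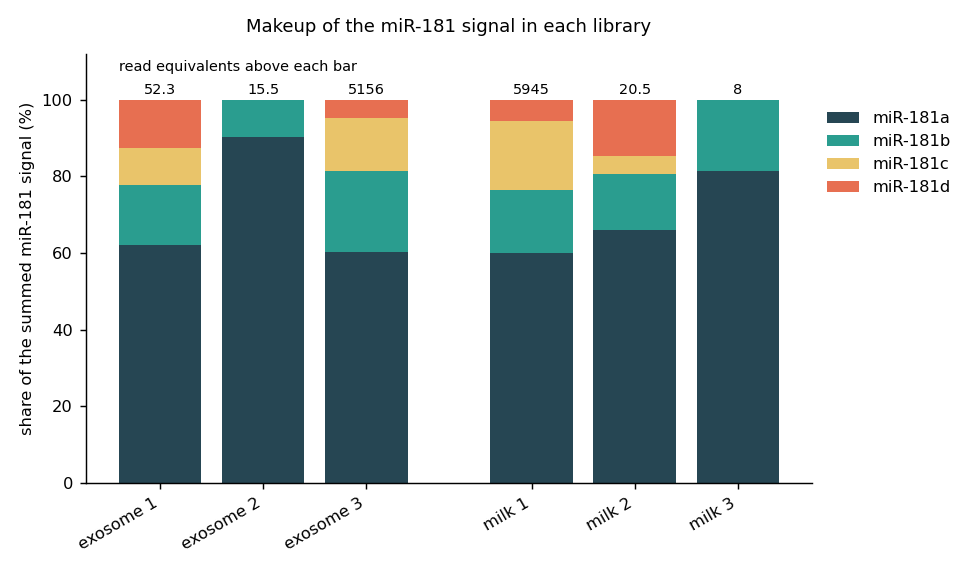
Share of the summed miR-181 signal held by each member in percent, for the 3 exosome and 3 milk libraries, with the family's read equivalents above each bar. miR-181a holds 60.0% to 90.3%, and the bars without miR-181c and miR-181d are those with 15.5 and 8 read equivalents.

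In the comparison of milk exosome with milk over all miRNAs, limma called 0 of 141 tested entries at an adjusted p of 0.05 (0%). Without adjustment, too, 0 entries had a p under 0.05. The spread within groups was wide, with a median standard error of 1.94 on the log2 scale, so a count of 0 does not show that milk exosome and milk were alike. All 4 members were among the 141. Their log2 fold changes were all above 0 and had a median of 0.50, against 0.34 over all tested entries. Of all tested entries 84 were positive and 57 negative. The sign of miR-181a was fixed by the rule that chose the family, and its value enters the median of 0.50. The others stood at 0.57 for miR-181b, 0.43 for miR-181c and 0.13 for miR-181d. After rescaling to a common total of listed signal 2 of 4 members were positive (median 0.02, all tested -0.30), and with the erythrocyte miRNAs left out of that total 1 of 4 was (median -0.10, all tested -0.43). In the 4 shallow libraries alone, 2 in each group, the log2 fold changes were 1.10 for miR-181a, 0.62 for miR-181b, 0.79 for miR-181c and 0.24 for miR-181d, with 0.39 as the median of all tested entries.

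**Figure D4:**
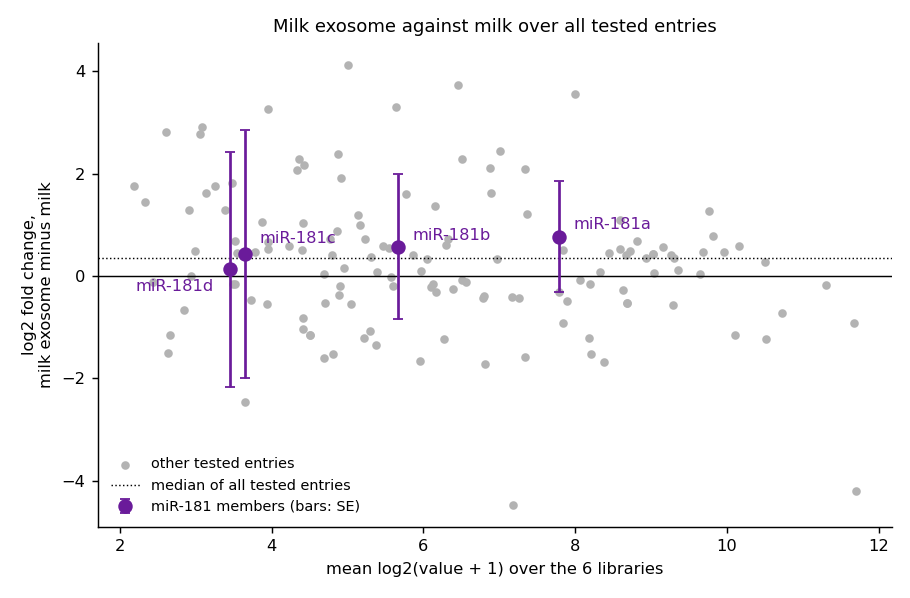
Log2 fold change, milk exosome minus milk, of the 141 tested entries against their mean log2(value + 1) over the 6 libraries, with the miR-181 members in purple and their standard errors as bars. The members lie at 0.13 to 0.77, near the median of 0.34 (dotted line), and the errors of 1.08 to 2.42 cross 0.

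Other miRNAs of T and B cell development and signalling were mostly lower in exosomes on the deposited scale, with no call. Of a list of 19, 18 were listed and gave 20 tested entries, of which 0 passed in either direction, as over all 141. Of these entries, 5 had higher and 15 lower mean log2 values in exosomes, and their log2 fold changes had a median of -0.32 against 0.34 over all tested entries. The entries are not independent. Both arms of miR-142 were counted, and miR-17-3p, miR-17-5p, miR-18a, miR-19a, miR-19b, miR-20a and miR-92a, which share a gene cluster, were all among the lower. In milk exosome 2, miR-17-3p, miR-18a, miR-19a, miR-19b and miR-20a were at 0, and miR-18a was at 0 in milk 3 as well. In the shallow libraries alone 5 were higher and 15 lower, with a median of -0.63 against 0.39. The most abundant, miR-21, a miRNA of many cell types including activated lymphocytes, stood at 6746, 826 and 2424 in milk exosomes 1, 2 and 3, against 1742, 4273 and 2573 in milk 1, 2 and 3. The groups overlapped. The neighbours of miR-181c and miR-181d in the annotation had log2 fold changes of 0.27 for miR-23a (SE 1.57), 0.47 for miR-27a (SE 1.76) and 0.45 for miR-24-3p (SE 1.34). In the shallow libraries alone they were 0.16, 0.70 and 0.65, and after rescaling to a common total all 3 were negative (median -0.25).

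The profile of miR-181a over the 6 libraries was most like that of miR-29a. Profiles were compared as the root mean square difference of log2(value + 1), each centred on its own mean, over 132 tested mature names. The difference was 0.28 for miR-29a (Pearson r 0.896), 0.48 for miR-423-5p (0.748), 0.49 for miR-151-3p (0.872), 0.52 for miR-30c-5p (0.634) and 0.56 for miR-26a (0.728), against a median of 1.95. miR-181b lay at 0.51 (r 0.758), while miR-181c lay at 2.37 and miR-181d at 2.22. Within the family, only miR-181b thus came within the range of the 5 closest. miR-29a, which represses collagen genes, stood at 968, 737 and 1241 in milk exosomes 1, 2 and 3, against 968, 774 and 450 in milk 1, 2 and 3. Like miR-181a it was lowest in milk 3, the library with the lowest total of listed signal (26292, against 62347 to 751401 in the others), which these profiles share as points. In the shallow libraries alone miR-29a again lay closest, at 0.33. Of the 5 named above, however, it was the only one among the 5 closest there, where miR-181b lay at 0.49 and the median was 1.63.

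**Figure D5:**
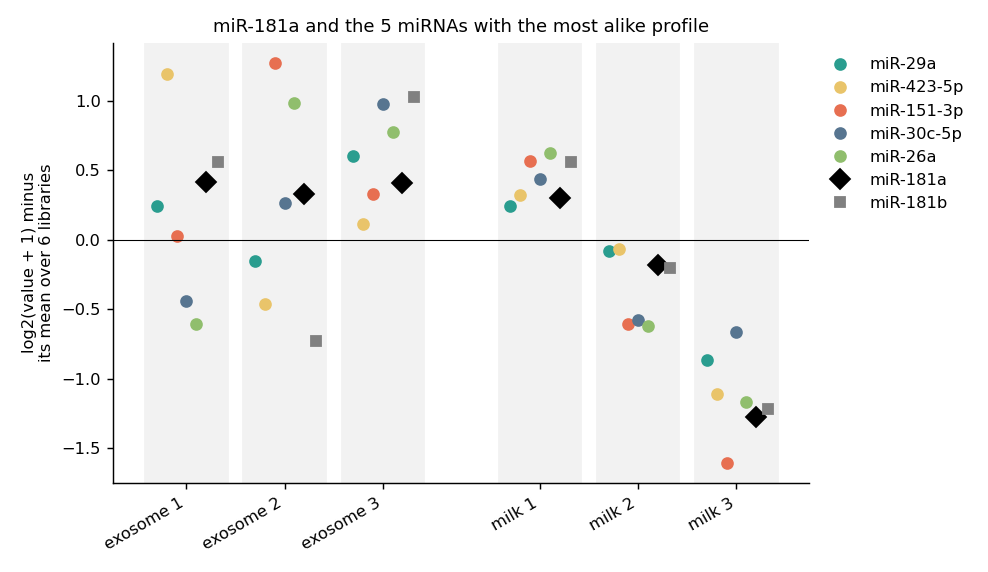
Log2(value + 1) of miR-181a, miR-181b and the 5 miRNAs with the most alike profile, each minus its mean over the 6 libraries, by library. Milk 3 holds the lowest value of each of these 7 miRNAs, and miR-181a (diamonds) is nearly level over the 3 exosome libraries and milk 1.

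Marker lists of cell types ranged widely within both groups. The leukocyte list, of which 4 of 5 miRNAs were listed (miR-142, miR-150, miR-155 and miR-146a) and none was at 0 in any library, held 1.93%, 0.230% and 1.52% of milk exosomes 1, 2 and 3, against 1.16%, 3.36% and 0.9997% of milk 1, 2 and 3. The erythrocyte list held 3.16% to 90.6% in exosomes and 13.8% to 91.5% in milk, with miR-144 at 0 in milk exosomes 1 and 2. The muscle list took 0.000785% to 55.1% in exosomes and 6.58e-05% to 10.5% in milk, where miR-133b and miR-206 were at 0 in milk 1 and milk 3. The epithelial list, with 4 of 8 listed, took 0.00267% to 0.397% in exosomes and 0.000997% to 1.21% in milk. In milk exosome 2 only its miR-205 was above 0, and miR-429 was also at 0 in milk exosome 3 and milk 2. The stromal and endothelial list, with 7 of 7 listed and none at 0, held 0.0137% to 9.07% in exosomes and 0.00938% to 11.8% in milk. The part of these cell types in the miR-181 values was not tested.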

How the data were processed

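The authors deposited a normalized signal per miRNA and library, with replicates kept apart. TruSeq small RNA libraries were made from Trizol-extracted RNA and read from a single end, per the labels' protocols. How reads were aligned, annotated and normalized is not given in the sources used here. Of 279 lines in the labelled sheet, 34 exact repeats were dropped. The 6 value columns of the other sheet match no sample label and were not used. Read equivalents divide a value by the most frequent value above 0; within 0.01 reads, 70.9% to 88.0% of values were whole multiples of it, so no count test was run.

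Entries at 10 or more in at least 3 libraries were fitted as log2(value + 1) with limma 3.58.1 (R 4.3.3, intensity trend, Benjamini-Hochberg, threshold 0.05). The added 1 understates changes of low miRNAs. Intervals at 95% used the Poisson and Clopper-Pearson formulas on unrounded read equivalents (scipy 1.17.1), and sequences were aligned with Biopython 1.88. The members, the lists, the rule for named miRNAs (all members and the 5 most alike profiles) and the alternatives were chosen with earlier results of these data known.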

Additional observations from a re-analysis of the deposited data

How the results depend on the processing

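In the comparison of milk exosome with milk, 0 miRNAs passed in limma under each of the alternatives run, with 0 to 5 at an unadjusted p under 0.05. The count of entries whose groups do not overlap was 2 of 141. Of the same 141, it was 0 after rescaling to a common total and 1 after recentring on the median. With no filter on low values it was 4 of 245. In the shallow libraries alone it was 33 of 141. With 1 library left out it was 4 to 23 of 141, where smaller groups separate more often. The separation of miR-181a was lost under both rescalings and under the recentring. Leaving out libraries cannot undo this separation, so nothing is read from its staying there. In the shallow libraries alone 14.9% of entries were higher in every exosome library. With 1 library left out 1.42% to 12.1% were.

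The log2 fold change of miR-181a was 0.074 after rescaling to a common total and -0.071 after the same without the erythrocyte miRNAs, the latter chosen after seeing the data. That of miR-181b was -0.12 and -0.25 under these settings, and that of miR-181d was -0.043 and -0.13. The cause of these changes was not tested. With 1 library left out miR-181a ran from 0.32 to 1.11 (lowest without milk 3) and miR-181b from 0.10 to 1.08. miR-181c ran from -1.29 to 2.36 and miR-181d from -1.56 to 1.89, with negative values without milk exosome 1 (-0.40 and -1.08), milk exosome 3 (-0.68 and -0.42) or milk 3. No filter, both pseudocounts and names summed to the mature name kept the signs of all 4 members, and under the filter at 100 miR-181a alone had a value.

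With the replicate number as a block 0 miRNAs were called. In this balanced design a block cannot move the log2 fold changes of 0.77, 0.57, 0.43 and 0.13 for miR-181a to miR-181d. It raised the SE of miR-181a to 1.90, against 1.08 without it, and that of miR-181b to 2.49, against 1.42. Same-numbered libraries had correlations of their deviations of -0.25, 0.39 and -0.48, so the numbers were not treated as pairs, and not every library correlated best with its own number. The labels do not say what a shared number stands for. Counting each sequence once could not move the makeup of the family, as each member has its own sequence, and leaving out names with a suffix was not run, since miR-181d alone has none. miR-181c and miR-181d were listed at 0 in milk exosome 2 and milk 3, the libraries with the fewest read equivalents (3910 and 1901). The part of depth in these zeros was not tested.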
